A study of Homo sapiens with 20 samples.

Results

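Retinoic acid is the active form of vitamin A and one of the main signals that pattern and differentiate neural progenitors. Cells oxidise retinol to retinaldehyde and then, with the ALDH1A dehydrogenases, to retinoic acid, while DHRS3 reduces retinaldehyde back to retinol and the CYP26 hydroxylases break retinoic acid down. The CRABP proteins hold retinoic acid in the cytoplasm, and the RAR receptors, paired with RXR, bind it in the nucleus and control target genes, several of which encode pathway members themselves.

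The 9 retinoid genes described here were the cellular retinoic acid binding proteins CRABP1 and CRABP2, the receptors RARA and RARB, the dehydrogenases ALDH1A1, ALDH1A2 and ALDH1A3, the reductase DHRS3 and the hydroxylase CYP26B1. They were chosen by symbol among the 20237 protein-coding records of a table of 38369 gene records. Each symbol was carried by 1 coding record, and none of these records was merged with a neighbouring gene. RNA had been collected from neural progenitor cells made from the human embryonic stem cell line H1, an established line, before neuronal differentiation was started (day 0) and 1, 2, 4, 5, 11 and then 18 days into it. Day 0 cells had grown in proliferation medium with FGF, and from day 0 on FGF was withdrawn and BDNF was added, in a medium with another base and supplement mix. The B27 supplement lacked vitamin A in both media, so that every group shared this feature, day 0 included. The cultures for days 5, 11 and 18 had been moved at day 4 to plates coated with poly-D-lysine and laminin. Every group came from the same line. The labels listed 20 cultures, 3 on each day except day 5 with 2.

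The deposited table gave each record a single FPKM value per day, which the authors had estimated from all cultures of that day together. FPKM counts fragments scaled by transcript length and by mapped fragments, so levels can be compared between genes. No value of a single culture was at hand and sequencing depth is unknown, so the spread between cultures cannot be given and no difference below carries a test. The comparisons therefore give sizes only, on the scale of log2(FPKM + 0.1), and a difference of 1 on that scale, which is 2-fold, was counted as large. As a yardstick, the same counts were made over the 12404 coding records that reached 1 FPKM on at least 1 day.

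RARB, a receptor gene long known to be switched on by retinoic acid, carried a receptor binding motif at its downstream start. The letters searched were direct repeats of the half-site AGGTCA, with G also allowed at position 1 and T at position 3, 1, 2 or 5 bases apart and on either strand. The windows ran from 250 bases before to 50 after each transcript start of the coding records, read from GRCh37, the assembly that hg19 names. The 5-base repeat stood in 0.0907% of the 37477 windows of 19295 coding records, and a repeat of any of the 3 spacings in 0.531%. Of the 21 windows of the 9 genes, 2 held a repeat. Both belonged to RARB and held the same copy. With 6 bases on either side, this copy spans chr3:25469695-25469723 on the plus strand. The repeat itself began 53 bases before the start at 25469754. It also began 133 bases before the one at 25469834, inside a single-exon transcript of the same record. CYP26A1, the sister gene of CYP26B1 and no member of the 9, was added after its values were seen. Its copy, with the same 6 bases on either side, spans chr10:94833554-94833582. The repeat itself began 87 bases before the start at 94833647 and within the first exon of a longer transcript. These are the only stretches shown, since they are the receptor motifs found in the windows of the 9 genes and CYP26A1; windows of other genes were searched for the shares only. Both are written on the plus strand with the repeat in capitals.
RARB: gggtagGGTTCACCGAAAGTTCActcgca
CYP26A1: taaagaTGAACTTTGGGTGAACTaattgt
The CYP26A1 copy reads as a half-site repeat on the opposite strand. No window of CRABP1, CRABP2, RARA, the ALDH1A genes, CYP26B1 or DHRS3 held such a repeat, which says only that these letters were not in those windows.

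CRABP2 and DHRS3 stood higher from day 1 on than at day 0, CYP26B1, DHRS3 and RARB stood higher at day 11 than at day 5, and CRABP1 was by far the most abundant of the 9 on every day. The 3 ALDH1A genes stayed below 1 FPKM throughout. The 6 other genes reached 1 FPKM on at least 1 day.

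**Figure D1:**
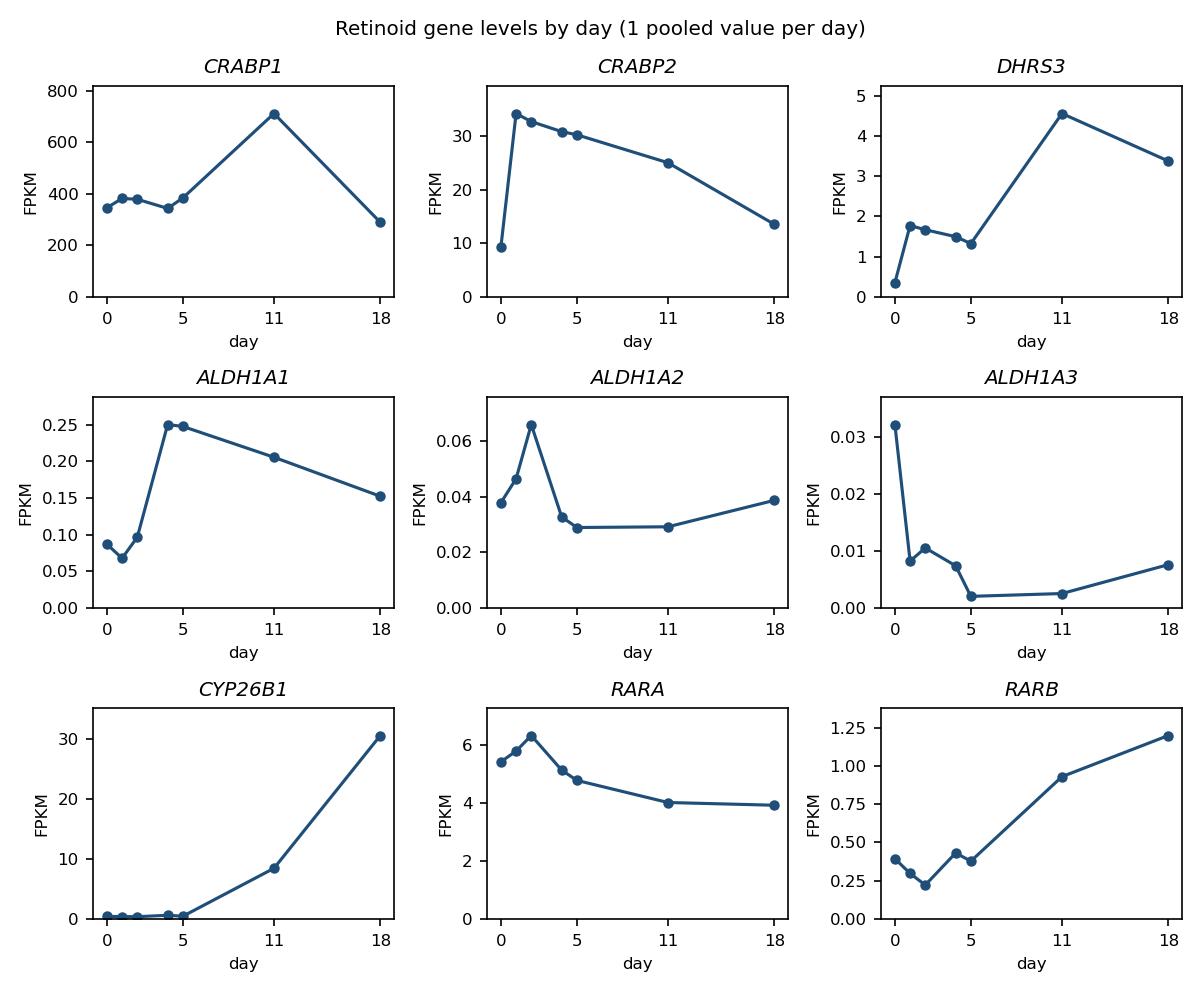
FPKM (vertical axis, from 0, with its own range in each panel) of the 9 genes by day of differentiation (horizontal axis); each point is the authors' single value for that day, so no error bar can be drawn. CRABP2 and DHRS3 step between day 0 and day 1, CYP26B1 between day 5 and day 18, and the ALDH1A panels end at 0.25 FPKM or less.

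CRABP1 and CRABP2 bind retinoic acid in the cytoplasm. CRABP1 is linked to its storage and breakdown and CRABP2 to its delivery to receptors. The CRABP1 record lies at chr15:78632666-78640572 on the plus strand and has 1 transcript of 4 exons. Its level was 346 FPKM at day 0, then 382, 379, 343 and 384 FPKM up to day 5, 711 on day 11 and 290 on day 18. The first 5 days were thus level, day 11 stood above all others and day 18 was the lowest. CRABP1 ranked 103rd of the 20237 coding records at day 0 and 71st at day 18, so its place among genes was kept although its FPKM was lower. The difference from day 5 to day 11 was 0.89 on the log2 scale, and that from day 11 to day 18 was -1.30. The latter was the 162nd lowest of the 12404 records.

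The CRABP2 record lies at chr1:156669410-156675375 on the minus strand and also has 1 transcript of 4 exons. Its level was 9.30 FPKM at day 0, then 34.1, 32.6, 30.8 and 30.2 FPKM up to day 5, 25.0 on day 11 and 13.5 on day 18. Day 1 was therefore the peak, and each later day stood lower than the one before, with day 18 still above day 0. The step from day 0 to day 1 was 3.67-fold, or 1.86 on the log2 scale, the 83rd highest of 12404 records. CRABP1 differed by 1.10-fold over the same day.

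The pair thus took different courses. The ratio of CRABP1 to CRABP2 in FPKM was 37.2 at day 0, between 11.2 and 12.7 from day 1 to day 5, 28.5 at day 11 and 21.4 at day 18. Together they gave 355 FPKM on day 0, 736 on day 11 and 303 on day 18, and CRABP1 made up most of it on every day.

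**Figure D2:**
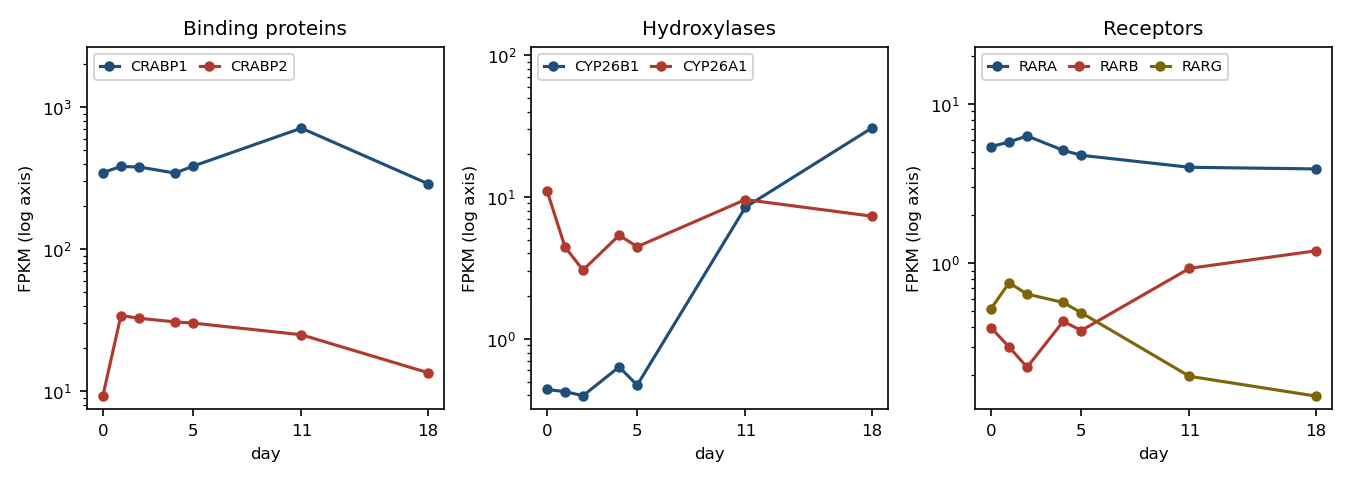
FPKM (log axis) by day for the binding proteins CRABP1 and CRABP2, the hydroxylases CYP26B1 and CYP26A1, and the receptors RARA, RARB and RARG; each point is 1 pooled value per day. The CYP26 lines cross between day 11 and day 18, the RARB and RARG lines between day 5 and day 11, and CRABP1 lies above CRABP2 on all 7 days.

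DHRS3 reduces retinaldehyde to retinol and so lowers the supply for retinoic acid synthesis. Its record spans chr1:12627940-12677820 on the minus strand, with 5 transcripts of up to 6 exons. Its level was 0.358 FPKM at day 0 and 1.78 at day 1, moved only between 1.78 and 1.33 FPKM up to day 5, and was 4.55 on day 11 and 3.37 on day 18. Day 0 stood alone at the bottom, days 1 to 5 formed a level stretch, and days 11 and 18 lay above it. DHRS3 differed by 2.04 on the log2 scale from day 0 to day 1, the 53rd highest of 12404 records, and by 1.71 from day 5 to day 11, the 55th highest. An antisense lincRNA record, linc-DHRS3-AS, covered 2142 of its 2890 exon bases. That record was listed between 0.0224 FPKM at day 0 and 0.241 at day 11. The library kit was not stated to keep strand, so reads of the pair cannot be told apart.

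RDH10 catalyses the reverse step, from retinol to retinaldehyde. RDH10 gave 4.59 FPKM on day 0, 3.13 on day 5, 1.97 on day 11 and 1.27 on day 18. RDH10 was therefore 12.8 times DHRS3 at day 0 and about 2 times DHRS3 from day 1 to day 5, the ratio there lying between 1.97 and 2.36. At day 11 DHRS3 was 2.32 times RDH10, and at day 18 it was 2.67 times RDH10.

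The ALDH1A enzymes make retinoic acid from retinaldehyde. ALDH1A1 (chr9:75515588-75695358, minus strand) was 0.0871 FPKM at day 0, then 0.0679 and 0.0966 FPKM, and from day 5 on 0.248, 0.206 and 0.152 FPKM, day 4 being its highest at 0.25 FPKM. ALDH1A2, the enzyme of the early embryo (chr15:58245628-58571462, minus strand), lay between 0.0290 and 0.0660 FPKM. ALDH1A3 (chr15:101420009-101456828, plus strand) was 0.0322 FPKM at day 0 and between 0.00206 and 0.0105 on the other days. All 3 stayed below the 1 FPKM floor and entered no count. Their summed level was at most 0.290 FPKM, on day 4. With depth unknown, such levels cannot be set apart from background, and the order of days within them carries no weight. The annotated genes reach further than these records for ALDH1A2, whose GENCODE bounds end at 58790065. Antisense lincRNA records covered 59.6% of the ALDH1A1 exon bases and, for the larger of 2, 46.8% of those of ALDH1A3, and none of them exceeded 0.00855 FPKM.

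CYP26B1 hydroxylates retinoic acid for clearance and is known for protecting parts of the embryo, the hindbrain among them, from it. Its record lies at chr2:72356367-72374963 on the minus strand, with 3 transcripts of up to 6 exons and no exon shared with another record. Its level was 0.440 FPKM at day 0, then 0.425, 0.398, 0.634 and 0.472 FPKM up to day 5, 8.47 on day 11 and 30.6 on day 18. All days to day 5 lay under 1 FPKM and both later days lay far above them. Day 18 was 69.5 times day 0 in FPKM, and the difference of 5.83 on the log2 scale was the 6th highest of 12404 records. From day 5 to day 11 the level differed by 17.9-fold, the 3rd highest difference on the log2 scale, and from day 11 to day 18 by 3.61-fold, the 21st highest. Among all coding records CYP26B1 moved from rank 12377 at day 0 to rank 1378 at day 18.

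CYP26A1 took another course. It was 11.1 FPKM at day 0, then 4.44, 3.05, 5.37 and 4.46 FPKM up to day 5, 9.58 on day 11 and 7.33 on day 18. CYP26A1 was thus 25.2 times CYP26B1 at day 0, the 2 were close at day 11 with a ratio of 1.13, and CYP26B1 was 4.17 times CYP26A1 at day 18. The remaining gene of the family, CYP26C1, stayed at or under 0.279 FPKM. The FPKM of all 3 together was 11.7 at day 0, 3.53 at day 2, its lowest, and 38.2 at day 18.

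RARA and RARB are nuclear receptors for retinoic acid, and RARG completes the family. The RARA record (chr17:38465446-38513894, plus strand, 4 transcripts of up to 9 exons) was 5.41 FPKM at day 0, then 5.78, 6.32, 5.13 and 4.78 FPKM up to day 5, 4.01 on day 11 and 3.92 on day 18. These levels differed by at most 1.61-fold, the narrowest range of the 9 genes. The antisense record linc-RARA-AS covered 2627 of its 4242 exon bases and was listed at 0.111 to 0.170 FPKM.

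The RARB record (chr3:25215823-25639420, plus strand, 4 transcripts of up to 8 exons) was 0.394 FPKM at day 0, then 0.298, 0.222, 0.432 and 0.378 FPKM up to day 5, 0.930 on day 11 and 1.20 on day 18. Days 11 and 18 were the 2 highest, and day 18 was 3.04 times day 0. RARB passed the 1 FPKM floor through day 18 alone. Over days 1, 2, 4 and 5 its level had a span of 0.72 on the log2 scale, against a median span of 0.28 over the 12404 records, so that its difference of 1.11 from day 5 to day 11 exceeded this span but not by much. The GENCODE gene begins earlier than this record, at 24729378. The record joins transcripts from starts near 25215823 and near 25469754, and the values do not separate them, so no level can be tied to the start that carries the motif.

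RARG was 0.518 FPKM at day 0, 0.489 at day 5 and 0.146 at day 18. RARA gave 85.6% of the summed FPKM of the 3 receptor genes at day 0, 84.6% at day 5 and 74.5% at day 18. RARB gave 6.23% on day 0, 6.70% on day 5, 18.1% on day 11 and 22.8% on day 18. RARG gave 8.19% on day 0 and 2.78% on day 18. The sum itself lay between 5.14 and 7.18 FPKM.

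Of the 6 genes that reached 1 FPKM, CRABP2 and DHRS3 were over 2-fold higher at day 1 than at day 0, beside 4.01% of the 12404 records, and none was over 2-fold lower, beside 3.58%. From day 5 to day 11, CYP26B1, DHRS3 and RARB were over 2-fold higher, beside 2.45% of records, and none was over 2-fold lower, beside 4.52%. From day 0 to day 18 the same comparison gave CYP26B1, DHRS3 and RARB higher, beside 9.33%, and none lower, beside 29.8%. From day 11 to day 18, CYP26B1 was over 2-fold higher, beside 1.49%, and CRABP1 over 2-fold lower, beside 3.74%. CYP26B1 passed the 1 FPKM floor only through days 11 and 18, RARB through day 18 alone and DHRS3 only through days after day 0. The direction of these genes against the earlier days was thus partly fixed by the floor, and the counts are no support for it. The 6 genes were picked with earlier results of these data known, and the first and last comparisons share day 0, so these counts describe the 6 genes and are not independent of each other. Between days 1, 2, 4 and 5, no gene of the 6 differed by 2-fold from one sampled day to the next, beside shares over all records of 0.177% higher and 0.185% lower from day 1 to day 2, 0.137% and 0.919% for day 2 to day 4, and 0.379% and 0.0564% for the step from day 4 to day 5.

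**Figure D3:**
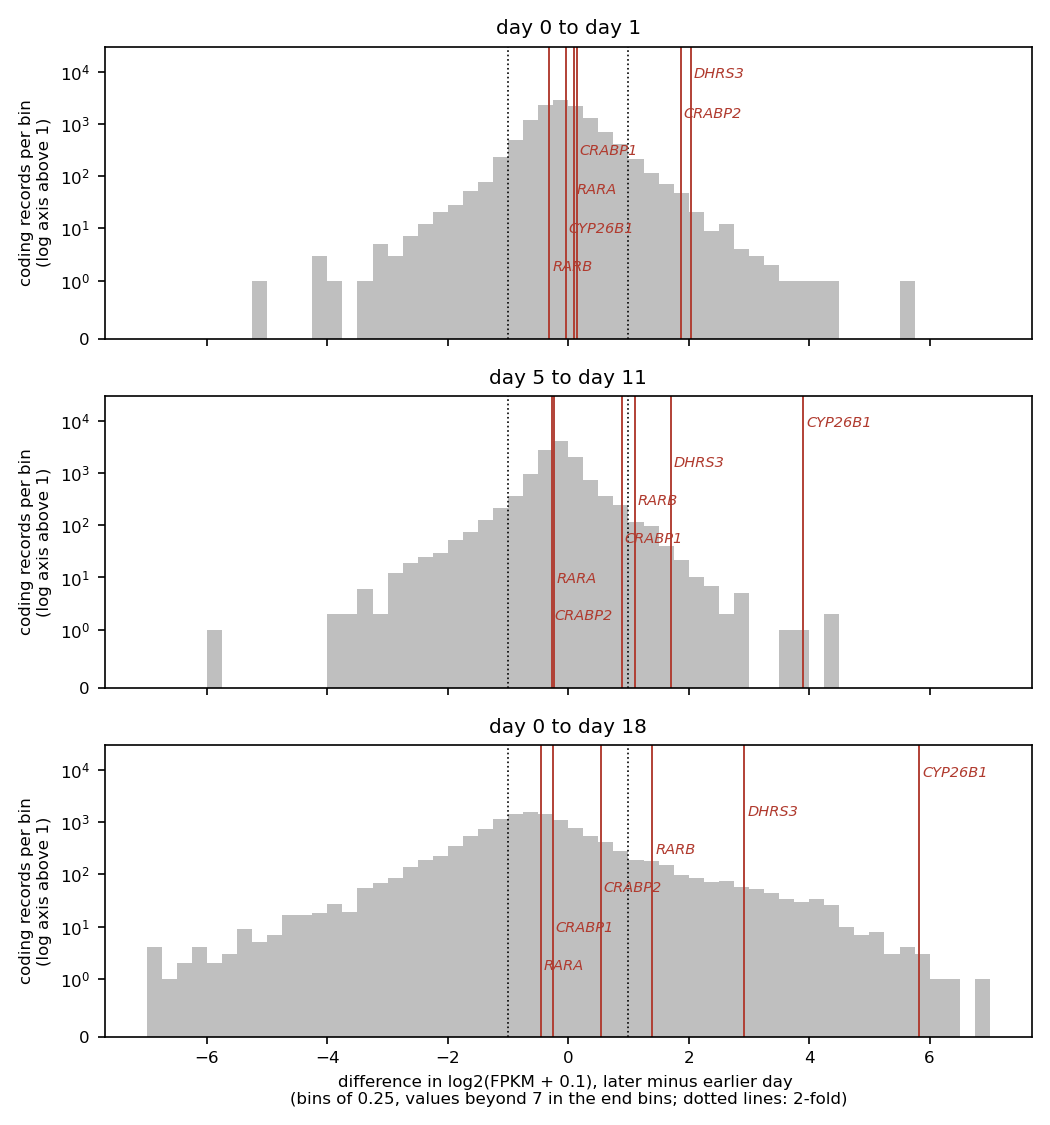
Number of coding records (vertical axis, log above 1) by difference in log2(FPKM + 0.1) between days (horizontal axis, bins of 0.25) for day 0 to day 1, day 5 to day 11 and day 0 to day 18, over 12404 records, with red lines at the 6 retinoid genes that reached 1 FPKM. CYP26B1 lies at the far right in the lower 2 panels, at 3.90 and 5.83, and the dotted lines mark 2-fold.

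The median difference of the 12404 records from day 0 to day 18 was -0.58 on the log2 scale, and the FPKM summed over all records was 413978 at day 0 and 251156 at day 18. Relative to that median, CYP26B1 stood at 6.41, DHRS3 at 3.51, RARB at 1.98, CRABP2 at 1.12, CRABP1 at 0.33 and RARA at 0.13. CRABP2 then passed 2-fold as well, and the sign for CRABP1 and RARA turned, since they differed by -0.26 and -0.46 as deposited. On the same relative scale 16.2% of records were over 2-fold higher and 12.8% over 2-fold lower. The median of the 6 genes was 0.96 as deposited.

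Levels of cell type markers differed over the same days, and in bulk RNA more cells of a type cannot be told apart from more RNA per cell. The counts over 2-fold in this paragraph are from day 0 to day 18 and stand beside 9.33% higher and 29.8% lower over all records. For markers that pass the 1 FPKM floor only on some days, the direction is partly fixed by the floor. All 12 progenitor genes reached 1 FPKM. Of these, 4 were over 2-fold higher at day 18 (HES5, SOX9, SLC1A3 and PAX6) and 2 over 2-fold lower (NES and PROM1), with SOX2 at 127 FPKM on day 0 and 66.1 on day 18. The 14 neuronal genes summed to 1100 FPKM at day 0 and 2143 at day 18, with 10 of 14 over 2-fold higher and 1, NEFL, over 2-fold lower. The TUBB3 value in these sums, 382 and 502 FPKM, comes from a record merged with other genes. The 8 cell cycle genes summed to 797 and 156 FPKM, with 8 of 8 over 2-fold lower. Of the 10 mesenchymal genes, 8 reached 1 FPKM and 7 of these were over 2-fold lower at day 18, the sum being 311 FPKM at day 0 and 40.8 at day 18, with COL1A1 listed at 0 on all days. The 6 neural crest genes summed to 1.41 FPKM at day 0 and 19.6 at day 11, through NGFR and TFAP2A, while SOX10 stayed at or under 0.165 FPKM and FOXD3 at or under 0.0873. The 8 genes of astrocytes or oligodendrocytes summed to between 1.64 FPKM, on day 4, and 10.2 FPKM, on day 0, with GFAP at most 0.187. S100B, the only gene of the 8 to reach 1 FPKM, gave most of the day 0 sum. It was 8.69 FPKM at day 0 and 4.25 at day 18, over 2-fold lower. Of the 6 pluripotency genes, POU5F1 and NANOG did not exceed 0.108 FPKM, TDGF1 was listed at 0 on all days, and the sum, mostly LIN28A and DPPA4, was 41.9 FPKM at day 0 and 4.23 at day 18. The part of these shifts in the retinoid genes was not tested.

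For each of the 6 genes, the 3 single-symbol records with the closest course over the 7 days were taken from 9137 or 9138 records that reached 5 FPKM, by the root mean square difference of centred log2 values. This measure is not scaled for range. Genes that vary little thus lie close to each other whatever their course, and genes that vary widely lie far from most records. CRABP1 was closest to PAX3, a transcription factor of the dorsal neural tube, at 0.14, then to PCDH19, a protocadherin, and BMPR1B, a BMP receptor, at 0.18 and 0.19. PAX3 was 31.0 FPKM at day 0, 62.3 at day 11 and 27.9 at day 18. CRABP2 was closest to ICA1 at 0.19, with ZNF788 and TRAPPC6A both at 0.22. ICA1 was 1.49 FPKM at day 0, 7.11 at day 1 and 2.34 at day 18. DHRS3 was closest to DLL1, a Notch ligand, at 0.26, HES5, a Notch target, at 0.28 and SLITRK2 at 0.36. HES5 was 1.95 FPKM before differentiation, 14.2 on day 1, 9.43 on day 5 and 29.5 on day 11.

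RARA had the closest neighbours, TMEM184B, the kinase gene MAP2K2 and PLEKHM2, at 0.04 to 0.05. RARB was closest to the lipid phosphatase gene PPAP2B and to the axon guidance genes PLXNA2 and SEMA5A, at 0.14 to 0.15. PPAP2B was 7.43 FPKM at day 0 and 21.9 at day 18. CYP26B1 had the most distant neighbours, ISLR2 at 0.60, the synaptic organiser gene CBLN2 at 0.64 and SPARCL1 at 0.68. CBLN2 was 0.290 FPKM at day 0, 10.3 at day 11 and 19.4 at day 18. Among the 6 genes themselves the smallest such difference was 0.50, between CRABP1 and RARA. This does not make their courses alike: from day 5 to day 11 CRABP1 differed by 0.89 and RARA by -0.24 on the log2 scale.

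The wider pathway was described with 4 gene lists. A list gene that passes the 1 FPKM floor only on some days has its direction partly fixed by the floor. The list counts are thus no support for a direction. Of 28 other genes of retinoid metabolism, all had a record, 7 of them merged with another gene, and 11 reached 1 FPKM. From day 0 to day 18, 1 of the 11 was over 2-fold higher and 3 were over 2-fold lower, beside 9.33% and 29.8% of all records, with a median of -0.62 beside -0.58. These shares are near those of all records. RPE65, the isomerase of the visual cycle, was the one that was higher, at 0.264 FPKM on day 0 and 3.09 on day 18. The other retina genes RLBP1 and RAX stayed at or under 0.173 FPKM. RPE65 stood higher on each sampled day than on the one before, with 0.925 at day 5 and 1.70 at day 11. It passed the 1 FPKM floor only through days 11 and 18, so its direction was partly fixed by the floor. The 3 lower genes were RDH10, the merged record of DHRS4 and DHRS4L2, retinaldehyde reductases, at 13.4 and 5.14 FPKM, which at -0.79 did not pass 2-fold relative to the median, and CYP1B1, a cytochrome P450 that can oxidise retinol, at 7.13 and 0.309 FPKM. CYP1B1 passed the floor only through days 0 to 5. The 7 genes in between included CYP26A1. They also included RDH5, RDH13, RDH14 and RDH16, each in a record merged with another gene. The values of these merged records may come in part from the other gene, and the counts and the median include them. The alcohol dehydrogenase genes ADH1A, ADH1B, ADH1C, ADH4 and ADH7 were all listed at 0.

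Of 10 other genes of retinoid binding and transport, 9 had a record and 2 reached 1 FPKM. FABP5, a fatty acid binding protein that also carries retinoic acid, was 36.2 FPKM at day 0, 14.2 at day 1 and 13.4 at day 18. FABP5 was thus over 2-fold lower at day 18, and relative to the median it kept its direction without passing 2-fold, at -0.85. STRA6, the retinol uptake receptor, fell outside the naming rule and was picked for its course. STRA6 gave 1.67 FPKM on day 0, 4.04 on day 1, 5.15 on day 5 and 0.880 on day 18. The serum carriers RBP4 and TTR stayed at or under 0.0436 and 0.00517 FPKM.

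Of 21 other receptor and cofactor genes, 18 reached 1 FPKM, 1 was over 2-fold higher at day 18 and 4 were over 2-fold lower, beside 9.33% and 29.8% of all records, with a median of -0.53 beside -0.58. The list thus did not exceed all records in either direction, and its members are given as values. PNRC1, a nuclear receptor coregulator, was higher, at 5.73 FPKM on day 0 and 12.4 on day 18. HDAC3, the deacetylase of a nuclear receptor corepressor complex, was 42.4 and 17.2 FPKM, and TBL1X, another of its subunits, 10.3 and 4.65 FPKM. NRIP1, which represses ligand-bound receptors, was 16.2 and 7.58 FPKM. The orphan receptor NR2F6 was 34.2 and 10.6 FPKM. Relative to the median, NR2F6 alone of these 4 stayed over 2-fold lower. The RXR partners RXRA and RXRB were among the 13 that differed by less than 2-fold.

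Of 36 genes known to respond to retinoic acid, 12 reached 1 FPKM, 3 were over 2-fold higher at day 18 and 3 were over 2-fold lower, beside 9.33% and 29.8% of all records, with a median of 0.40 beside -0.58. Relative to the median of all records, 6 were over 2-fold higher and 2 lower, beside 16.2% and 12.8%. NEUROG2, a proneural transcription factor, was 0.693 FPKM before differentiation, 5.06 on day 1, 19.4 on day 11 and 9.93 on day 18. NEUROG2 passed the 1 FPKM floor only through days after day 0, so its direction was partly fixed by the floor. NTRK2, the BDNF receptor, was 28.5 and 62.2 FPKM at days 0 and 18, and TSHZ1, a zinc finger factor, 1.76 and 4.46 FPKM. RARRES2, which encodes the secreted protein chemerin, was 23.9 FPKM at day 0, 41.9 at day 1 and 3.03 at day 18. RAI14 was 40.9 and 12.4 FPKM at days 0 and 18, and HOXB2 was 1.86 and 0.856 FPKM. HOXB2 passed the floor on every day but day 18. HOX genes of the anterior groups, classic targets of retinoic acid, were otherwise low. The 15 HOX genes of the list fell in 14 records, of which 11 never reached 0.1 FPKM, 2 peaked between 0.1 and 1 FPKM, and HOXB2 alone reached 1 FPKM. No receptor occupancy or retinoic acid level was measured in these files.

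**Figure D4:**
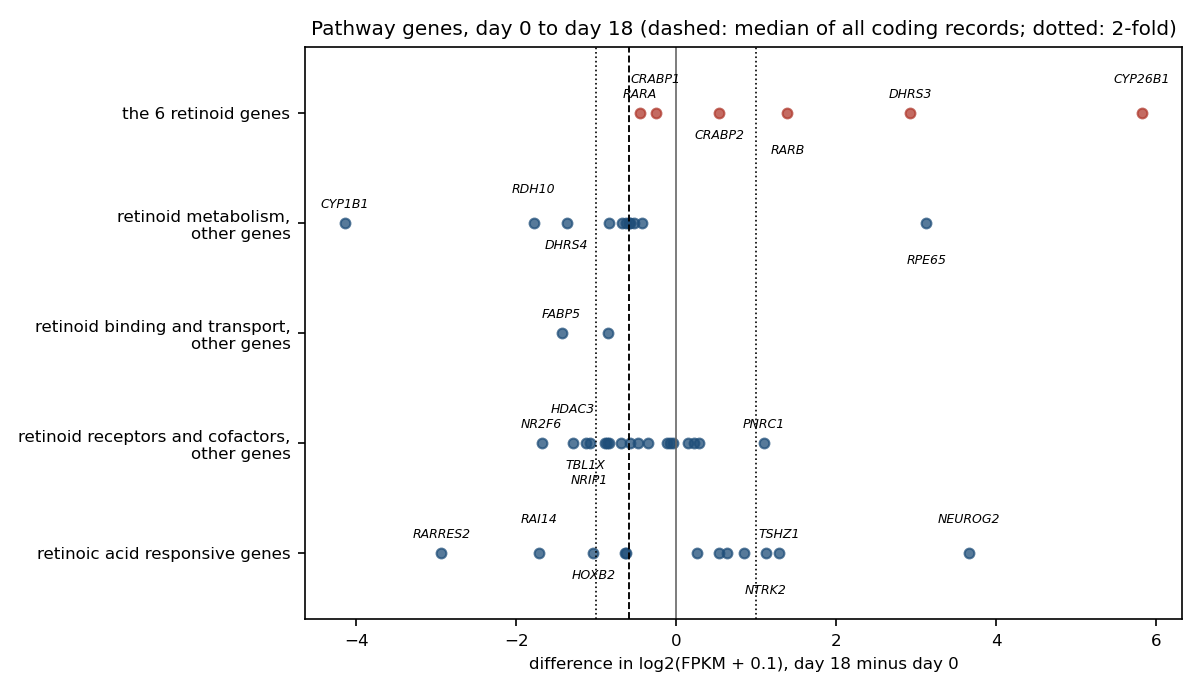
Difference in log2(FPKM + 0.1) from day 0 to day 18 (horizontal axis) for the 6 retinoid genes that reached 1 FPKM and for the genes of 4 pathway lists that did; each point is 1 record, and those over 2-fold are named. Most genes of the metabolism, binding and receptor lists lie within 2-fold of the dashed line, the median of all coding records at -0.58. Of the 12 retinoic acid responsive genes, 6 lie over 2-fold above that line and 2 over 2-fold below it. CYP26B1, DHRS3, NEUROG2 and RPE65 lie farthest to the right.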

How the data were processed

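Polyadenylated RNA was sequenced from 20 cultures over 7 days. As the methods of the study state, reads were aligned with TopHat2 (hg19), transcripts came from Cufflinks and levels from Cuffdiff2, all run by the authors; the deposited FPKM values are its estimates, 1 per record and day, over the cultures of that day, with 1 day 5 culture left out as an outlier per the labels. The file with annotation also holds the authors' own comparisons between days, their fold changes, test statistics, p and q values, which were not used. For each of the 9 genes, the coding record with the highest mean FPKM was taken; symbols of other genes were read the same way. Differences were computed as log2(FPKM + 0.1), and over 2-fold was counted among coding records with a maximum of at least 1 FPKM. A check of this count on simulated data used planted changes far larger than 2-fold, so it cannot speak to changes near 2-fold. Genes and lists were chosen with earlier results of these data known. All 9 genes are named; of the list genes, those with a maximum of at least 1 FPKM and a difference of at least 1 on the log2 scale from day 0 to day 18 are named, and for each gene the 3 single-symbol records reaching 5 FPKM that were closest in course. CYP26A1, CYP26C1, RARG, STRA6, RBP4, TTR, RXRA, RXRB, RDH5, RDH13, RDH14, RDH16 and the ADH genes fall outside this rule and were named after their values were seen. Some list genes are not reported here. Computation used Python 3.11.15, numpy 2.4.6 and pandas 2.3.3.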

Additional observations from a re-analysis of the deposited data

How the results depend on the processing

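With 1 value per day, no error was set beside any difference, and depth limits the low genes most: the ALDH1A genes, and RARB, whose count rests on values near 1 FPKM. No paired analysis was possible because the files hold no values of single cultures, and for the same reason no culture could be left out in turn. Computed were 7 alternatives: a pseudocount of 1 or 0.01, recentring on the median, no floor, a fold of 1.5, summed records and, for single genes, day 11 as the last point. The number of genes over 2-fold higher was 2 from day 0 to day 1 under each of the first 6. It was 3 as reported for the other comparisons, day 0 to 18 and day 5 to 11, and 2 for both with a pseudocount of 1, which took RARB under 2-fold at 0.66 and 0.49. It was 4 for both after recentring, which added CRABP2 and CRABP1 in turn, and 4 for day 5 to day 11 with a fold of 1.5. None of the 6 genes at the floor was over 2-fold lower under any of them; ALDH1A3, below the floor, stood at -1.21 on day 1 and -1.26 on day 18 against day 0 with a pseudocount of 0.01. The floor and the fold cannot alter a gene's own difference, and summing alters nothing where each symbol has 1 record. Of the 90 differences of single genes under the other 4, 70 stayed within 0.5 on the log2 scale and 20 did not. No gene over 2-fold turned direction. Recentring shifts all genes alike, by medians of -0.0999 for day 0 to 1, -0.1592 for day 5 to 11 and -0.5836 for day 0 to 18. Its outcomes against the 0.5 limit, 18 that stayed and 9 that did not, were thus fixed in advance and say nothing of single genes. With a pseudocount of 1 the difference of CYP26B1 from day 0 to day 18 was 4.46 in place of 5.83, and that of DHRS3 was 1.69 in place of 2.92. With day 11 as the last point CRABP1 differed from day 0 by 1.04 in place of -0.26, and CRABP2 by 1.42 in place of 0.54.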

Other observations

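The files also list 13 lincRNA records named after 6 of the 9 genes. Of these, 10 never reached 0.1 FPKM, 3 of them being listed at 0 on all days. The record linc-CRABP2, 6628 bases from CRABP2 on the same strand, was 0.563 FPKM at day 0 and 0.487 at day 1, and 0.615, 0.541 and 0.736 FPKM on the last 3 sampled days. It showed no step between day 0 and day 1 of the kind listed for CRABP2, which was 9.30 FPKM at day 0 and 34.1 at day 1.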
